A study of Homo sapiens with 4 samples.

Results

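The genes described here encode 9 enzymes that make deoxynucleotides or recycle them: RRM1, RRM2, RRM2B, TYMS, TK1, DUT, DCK, DTYMK and DCTPP1. They were taken by gene symbol from a count table of 57992 genes. All 9 had a row, and all 9 were among the 15193 genes with enough reads to be tested. RNA came from MOLM13, an established human acute myeloid leukaemia line, in a subline labelled VEN-R, which the study uses as its model of resistance to the BCL2 inhibitor venetoclax. Doxycycline induced a hairpin in every library: a hairpin against PRMT9 in 2 libraries labelled shPRMT9 (genotype label PRMT9 knockdown), and a control hairpin in 2 libraries labelled shCtrl (genotype label WT). PRMT9 is a protein arginine methyltransferase. The labels do not say whether the numbers 1 and 2 stand for separate cultures, separate hairpin sequences or repeats of 1 culture, so each p-value and SD measures only the spread between these libraries, which may be technical.

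Cells build DNA from deoxynucleoside triphosphates, whose pools limit replication and repair. Ribonucleotide reductase makes deoxynucleotides from ribonucleotides. It joins a large catalytic subunit, RRM1, to a small subunit that carries the tyrosyl radical. RRM2 is the small subunit of S phase, while RRM2B is a small subunit induced by DNA damage and used outside S phase. Thymidine nucleotides need further steps. DUT hydrolyses dUTP to dUMP, TYMS methylates dUMP to dTMP, TK1 forms dTMP from salvaged thymidine, and DTYMK phosphorylates dTMP. DCK phosphorylates deoxycytidine and is the kinase that activates the leukaemia drug cytarabine. DCTPP1 removes dCTP and its modified forms from the pool. Several of these genes are classical targets of E2F factors, and the CCAAT box bound by NF-Y is known from promoters of cell cycle genes.

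The genes were all lower in shPRMT9 cells, and short promoter stretches are shown to let their upstream sequences be compared. The window of 250 bases before each annotated start in RefSeq (GRCh38.p14) was searched on both strands for 4 words, and 8 of the 9 genes matched that table, with 13 windows. RRM2B was not among them. These RefSeq starts differ from the gene bounds of the count table given further on: in 12 of the 13 windows the RefSeq start lies inside those bounds, by 29 to 1186 bases, and for RRM1 it lies 22 bases before them. CCAAT was found in windows of RRM1, RRM2, TK1 and DTYMK, in 5 of the 13 windows, and in 32.0% of all 35116 windows. In the stretches below, written 5′ to 3′ on the strand of the gene, capitals mark CCAAT or, where the word lies on the other strand, ATTGG.
RRM1, chr11:4094645-4094674, plus strand: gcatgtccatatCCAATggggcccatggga
RRM2, chr2:10122604-10122633, plus strand: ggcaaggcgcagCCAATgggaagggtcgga
RRM2, chr2:10122634-10122663, plus strand: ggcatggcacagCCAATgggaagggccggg
RRM2, chr2:10122661-10122690, plus strand: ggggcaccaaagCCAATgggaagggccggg
TK1, chr17:78187112-78187141, minus strand: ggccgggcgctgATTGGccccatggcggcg
TK1, chr17:78187081-78187110, minus strand: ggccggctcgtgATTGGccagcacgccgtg
DTYMK, chr2:241686890-241686919, minus strand: ccccggccccggCCAATcccttcgaatttg
DTYMK, chr2:241686822-241686851, minus strand: tgttgacgccggCCAATgggagctccggaa
The 3 RRM2 copies shown begin at -123, -93 and -66 from the RefSeq start at chromosome 2 position 10122739, which lies 411 bases inside the RRM2 bounds of the count table. The other RRM2 window, with its RefSeq start at position 10122568, held CCAAT at -249, in a stretch not shown.

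The full E2F words TTTCCCGC, TTTCGCGC, TTTGCCGC and TTTGGCGC were found in windows of TYMS and DUT only among the 8 matched genes, in 1 of the 4 windows of DUT, and in 2.79% of all windows. The RefSeq start of that DUT window lies 1186 bases inside the DUT bounds of the count table, and that of TYMS lies 49 bases inside. Capitals mark them below, and GCGGGAAA is TTTCCCGC read from the other strand.
TYMS, chr18:657603-657632, plus strand: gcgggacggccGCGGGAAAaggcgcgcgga
DUT, chr15:48332152-48332181, plus strand: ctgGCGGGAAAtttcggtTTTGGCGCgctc
The shorter core TTNNCGC, which overlaps the E2F words, occurred in windows of 7 of the 8 matched genes, all but DCTPP1, and in 25.0% of the 27305 genes in the table. TTTGAA, known from cell cycle gene homology regions, occurred in windows of RRM1 and DUT, and in 16.1% of genes. A match describes letters in a window and is neither a binding site nor a cause.

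The libraries held 30764403 and 33845172 counts in shPRMT9 cells, and 30329901 and 28592902 counts in shCtrl cells. PRMT9 itself (ENSG00000164169, chr4:147637785-147684230, minus strand, GRCh38) had 81 and 78 counts in shPRMT9 cells, against 398 and 406 counts in shCtrl cells, which is -2.48 as a log2 fold change (SE 0.12) with an edgeR adjusted p = 1.13e-11. Myeloid markers were present, with 11 of 12 tested and a summed RPKM (reads scaled by exon length and library size) of 1370 and 1360 in shPRMT9 cells, against 1120 and 1140 in shCtrl cells. Of those 11, 8 were higher and 3 lower in shPRMT9 cells, and CSF2RA was listed at 0. Markers of other cell types were near 0. The summed RPKM was 0.461 and 0.571 in shPRMT9 cells against 0.464 and 0.511 in shCtrl cells for 8 lymphoid markers. It was 0.174 and 0.25 in shPRMT9 cells against 0.0774 and 0.0632 in shCtrl cells for 9 epithelial and stromal markers, of which EPCAM, KRT5, KRT19 and COL3A1 were at 0. Of 6 erythroid markers, 5 had no count in any library, HBB, HBA1, HBA2 and ALAS2 among them.

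All 9 enzyme genes fell in shPRMT9 cells. RRM2B fell least and kept 85.8% of the control level, while TYMS and DTYMK kept 43.1% and 44% of it. Together the 9 genes held 0.0685% and 0.0693% of the counts in shPRMT9 cells, against 0.114% and 0.113% in shCtrl cells. Their summed RPKM was 201.6 ± 2.97 in shPRMT9 cells and 345.1 ± 5.31 in shCtrl cells (SD, n = 2 each), a ratio of 0.584. The median log2 fold change of the 9 genes was -0.71, beside 0.001 over all genes tested. The scaling used here places the bulk of genes near 0, and every fold change is relative to it. With upper-quartile scaling the median over all genes tested was 0.09.

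The test was edgeR's quasi-likelihood test on the counts, with a gene called at a Benjamini-Hochberg adjusted p below 0.05 over all 15193 genes. Called genes were common in this comparison: 68.0% of all genes tested passed, 34.5% as lower and 33.4% as higher. In CPM, counts scaled by library total and TMM factor, both shPRMT9 libraries lay beyond both shCtrl libraries for each of the 9 genes, and for 83.3% of all genes tested. A count of calls or of separate groups is thus to be read against these high shares. The median size of a change among called genes was 0.52 on the log2 scale. A fall of 2-fold or more was called for 2 of the 9 genes, and for 571 genes or 3.76% of all genes tested. Against a fold of 1.5 in place of none (glmTreat of edgeR), 5 of the 9 were still called, namely TYMS, DTYMK, DCK, RRM2 and DUT, while RRM1, TK1, DCTPP1 and RRM2B were not. Of all 15193 genes tested, 2884 were called against that fold, in either direction. In bulk RNA, fewer cells in S phase and less of a transcript per cell cannot be told apart.

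**Figure D1:**
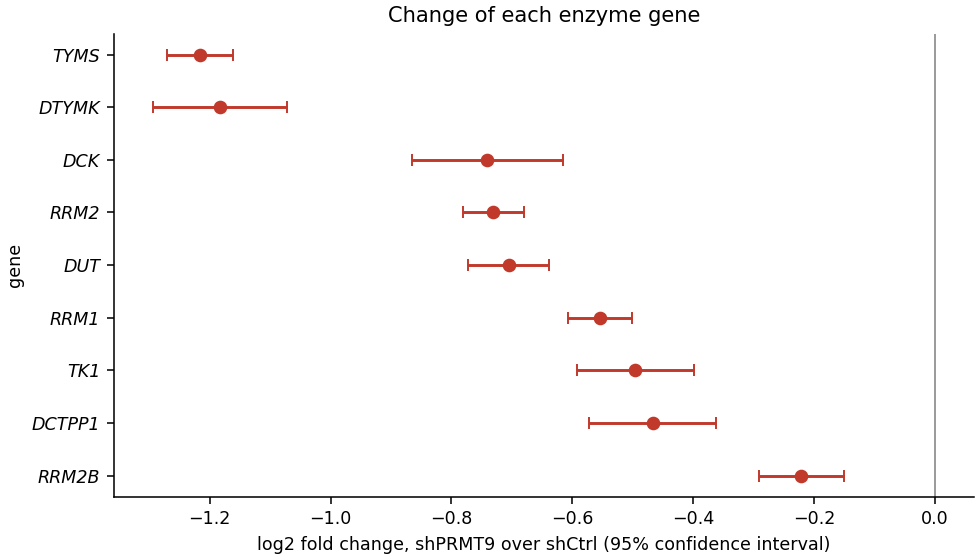
Log2 fold change of each enzyme gene, shPRMT9 over shCtrl, with genes on the vertical axis and 95% confidence intervals as bars. TYMS and DTYMK lie beyond -1, RRM2B lies nearest to 0 at -0.22, and no interval reaches 0.

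Among the ribonucleotide reductase genes, the S phase subunit fell most and the damage-induced one least. RRM2 (ENSG00000171848, chr2:10122328-10131419, plus strand) had 161.4 and 160.4 CPM in shPRMT9 cells, against 264.9 and 269.1 CPM in shCtrl cells. The groups were far apart and the libraries of each group close together. Its log2 fold change was -0.73 (SE 0.024, adjusted p = 7.65e-14), leaving 60.3% of the control level (95% confidence interval 58.2% to 62.4%). A larger fall was found in 9.42% of genes tested.

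RRM1, the large subunit (ENSG00000167325, chr11:4094707-4138876, plus strand), had 143.6 and 145.7 CPM in shPRMT9 cells, against 211.4 and 213.6 CPM in shCtrl cells. The gap was again many times the difference within a group, at -0.55 on the log2 scale (SE 0.0252, adjusted p = 4.69e-12), with 68.1% of the control level left (65.6% to 70.7%).

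RRM2B (ENSG00000048392, chr8:102204502-102239118, minus strand) had 75.74 and 74.38 CPM in shPRMT9 cells, against 87.43 and 87.53 CPM in shCtrl cells. The groups did not overlap, but in proportion to their level they lay closer than for any other of the 9 genes. The log2 fold change was -0.22 (SE 0.033, adjusted p = 1.47e-05), or -0.13 (adjusted p = 0.00194) with upper-quartile scaling, and 34.6% of genes tested had a larger fall, about the share of all genes called lower.

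TYMS and DTYMK, which act in succession on thymidylate, had the deepest falls of the 9 genes. TYMS (ENSG00000176890, chr18:657604-673578, plus strand) had 106.6 and 108.8 CPM in shPRMT9 cells, against 250.5 and 249.8 CPM in shCtrl cells. The libraries of a group were nearly equal and the groups far apart. The log2 fold change was -1.22 (SE 0.0258, adjusted p = 4.99e-16), 43.1% of the control level was left (41.5% to 44.7%), and only 2.05% of genes tested fell further. Of the annotated exonic bases of TYMS, 39.1% also lie in exons of ENOSF1 on the opposite strand, and 7.41% in TYMSOS. Use of strand in the counting is not given in the sources used here, so reads in these stretches cannot be assigned with certainty. ENOSF1 went the other way, with 83.04 and 78.33 CPM in shPRMT9 cells against 71.76 and 70.42 CPM in shCtrl cells (log2 fold change 0.18, adjusted p = 0.000394), and TYMSOS had 34 and 33 counts in shPRMT9 cells against 41 and 31 counts in shCtrl cells.

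DTYMK (ENSG00000168393, chr2:241675742-241686991, minus strand), the kinase that takes dTMP to dTDP, had 18.95 and 19.12 CPM in shPRMT9 cells, against 43.58 and 42.87 CPM in shCtrl cells. Its log2 fold change was -1.18 (SE 0.0522, adjusted p = 3.29e-12), leaving 44% (40.8% to 47.6%), with 2.29% of genes falling further. No exon of another annotated gene overlaps it, and 0.53% of its 50-base windows occur elsewhere.

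DUT (ENSG00000128951, chr15:48331011-48343373, plus strand), which supplies dUMP and keeps uracil out of DNA, had 82.27 and 84.31 CPM in shPRMT9 cells, against 138.3 and 133.3 CPM in shCtrl cells. The change was -0.71 on the log2 scale (SE 0.0316, adjusted p = 3.91e-12), close to that of RRM2, and 61.3% of the control level was left (58.5% to 64.2%). An antisense gene, RP11-154J22.1, shares 14.5% of the exonic bases of DUT. It had 31 and 60 counts in shPRMT9 cells against 80 and 65 in shCtrl cells, few beside the 2544 to 4182 counts of DUT.

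TK1 (ENSG00000167900, chr17:78174075-78187233, minus strand), the thymidine salvage kinase, had 33.08 and 32.35 CPM in shPRMT9 cells, against 46 and 46.22 CPM in shCtrl cells. It fell less than TYMS, DTYMK and DUT, by 0.50 on the log2 scale (SE 0.0455, adjusted p = 4.26e-08), and kept 70.9% of the control level (66.3% to 75.8%). The 95% intervals of TK1 and of TYMS, DTYMK and DUT do not overlap.

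The cytosine branch holds DCK and DCTPP1. DCK (ENSG00000156136, chr4:70992538-71030914, plus strand) had 28.68 and 32.37 CPM in shPRMT9 cells, against 53.34 and 48.83 CPM in shCtrl cells. The libraries of each group were farther apart than for the other 8 genes in proportion to their level, though the groups stayed clear of each other. The log2 fold change was -0.74 (SE 0.0587, adjusted p = 9.46e-09), leaving 59.8% (54.9% to 65.2%). MOB1B on the same strand shares 6.17% of the exonic bases of DCK and fell by 1.00 on the log2 scale, with 30.04 and 29.75 CPM in shPRMT9 cells against 59.22 and 60.23 CPM in shCtrl cells.

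DCTPP1 (ENSG00000179958, chr16:30423619-30430075, minus strand) had 30.91 and 33.2 CPM in shPRMT9 cells, against 43.68 and 45.09 CPM in shCtrl cells, which is -0.47 on the log2 scale (SE 0.0497, adjusted p = 2.73e-07) and left 72.3% (67.3% to 77.8%). Of the exonic bases of DCTPP1, 42.1% also lie in exons of ZNF771 on the opposite strand. ZNF771 had 52 and 53 counts in shPRMT9 cells against 71 and 59 in shCtrl cells, while DCTPP1 had 956 to 1321 counts. In GENCODE 29, RRM2 shares 20.2% of its 5323 exonic bases with AC007240.1 on the same strand, which was not analysed here. The RRM2 model of the count table has 4955 exonic bases and other bounds, the only mismatch with GENCODE 29 among the 9 genes, so this share is approximate. Pseudogenes of RRM2 and DUT took few reads: 11 such rows together held 1 to 7 counts per library.

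**Figure D2:**
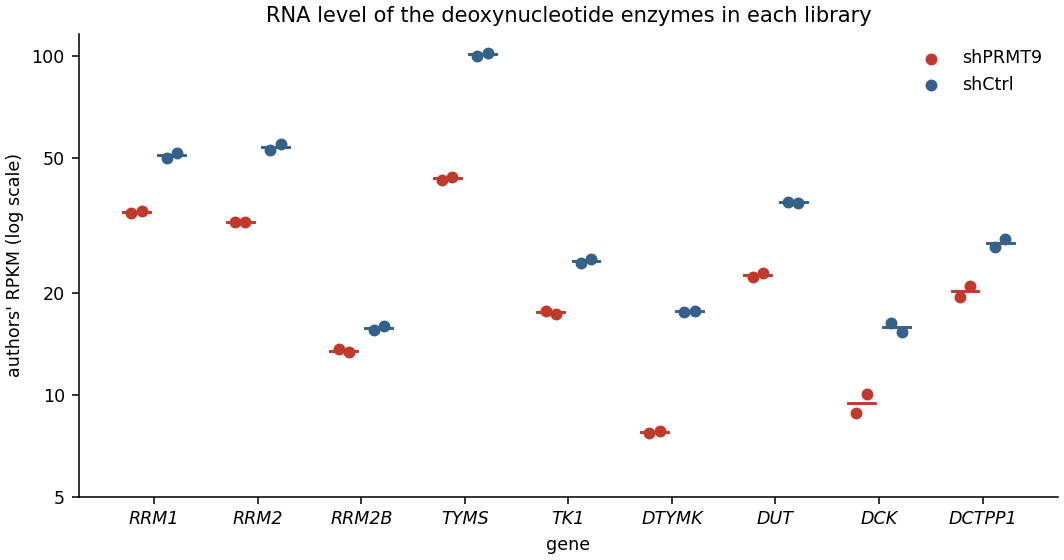
RPKM of the 9 enzyme genes on a log scale, with each library as a point and the group mean as a line, shPRMT9 left of shCtrl for each gene. TYMS is highest in both groups, at 43.53 RPKM in shPRMT9 cells and 101.3 RPKM in shCtrl cells.

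Per exon length, TYMS was the most abundant of the 9 transcripts in both groups. Its RPKM was 43.04 and 44.01 in shPRMT9 cells, against 100.2 and 102.4 in shCtrl cells, where it exceeded 98.1% of all genes tested. In shPRMT9 cells RRM1 (34.57 RPKM), RRM2 (32.41), DUT (22.63), DCTPP1 (20.24), TK1 (17.55), RRM2B (13.5), DCK (9.444) and DTYMK (7.752) followed, and no neighbours in that order had overlapping libraries. The exon lengths are those of the count table, and the place of RRM2 beside RRM1 depends on them. In shCtrl cells the order after TYMS was RRM2 (53.9 RPKM), RRM1 (50.87), DUT (36.96), DCTPP1 (28.08), TK1 (24.78), DTYMK (17.64), DCK (15.82) and RRM2B (15.77), with the libraries of DCK and RRM2B overlapping. The highest and lowest of the 9 means were 5.61-fold apart in shPRMT9 cells and 6.42-fold apart in shCtrl cells.

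The makeup of the enzyme set differed as well. TYMS held 21.59% ± 0.0239 of the summed RPKM in shPRMT9 cells and 29.35% ± 0.00126 in shCtrl cells (SD, n = 2 each). RRM2B held 6.699% ± 0.173 in shPRMT9 cells and 4.57% ± 0.0126 in shCtrl cells. DTYMK had the smallest share in shPRMT9 cells, 3.845% ± 0.0265, against 5.111% ± 0.0501 in shCtrl cells, where RRM2B and DCK had smaller ones. RRM2 held 16.08% in shPRMT9 cells and 15.62% in shCtrl cells, and DCK held 4.681% in shPRMT9 cells and 4.587% in shCtrl cells, with overlapping libraries for DCK.

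Ratios within a library do not depend on how libraries are scaled. RRM2 exceeded RRM2B, per exon length, 2.39 and 2.41 times in shPRMT9 cells, against 3.39 and 3.44 times in shCtrl cells. On the log2 scale the ratio was lower by 0.51 in shPRMT9 cells (difference -0.51, counting SE 0.0342), and between -0.52 and -0.50 with any library left out. The ratio of RRM2 to RRM1 was 0.947 and 0.928 in shPRMT9 cells, against 1.06 and 1.06 in shCtrl cells, a log2 difference of -0.18 (counting SE 0.0269). Which gene of the pair is higher in shCtrl cells depends on the exon length used. With the GENCODE 29 length of RRM2, 5323 bases in place of the 4955 of the count table, the ratio was 0.882 and 0.864 in shPRMT9 cells and 0.984 and 0.989 in shCtrl cells, with the same log2 difference of -0.18. The ratio of TK1 to DCK was 2 and 1.73 in shPRMT9 cells, against 1.5 and 1.64 in shCtrl cells, a log2 difference of 0.25 (counting SE 0.0593). The DCK counts differed between libraries of a group, and the difference was 0.15 without shPRMT9 replicate 1 and 0.35 without shPRMT9 replicate 2. The groups did not overlap in any of the 3 ratios. For RRM2 to RRM2B the difference of -0.51 stands beside SDs of 0.0125 in shPRMT9 cells and 0.0145 in shCtrl cells. For RRM2 to RRM1 the SDs were 0.0204 in shPRMT9 cells and 0.0052 in shCtrl cells, and for TK1 to DCK 0.1465 in shPRMT9 cells and 0.095 in shCtrl cells. With 2 libraries against 2, an exact two-sided permutation test gives at least p = 0.333 whatever the values, as it did for each ratio, so it says nothing for or against a difference.

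**Figure D3:**
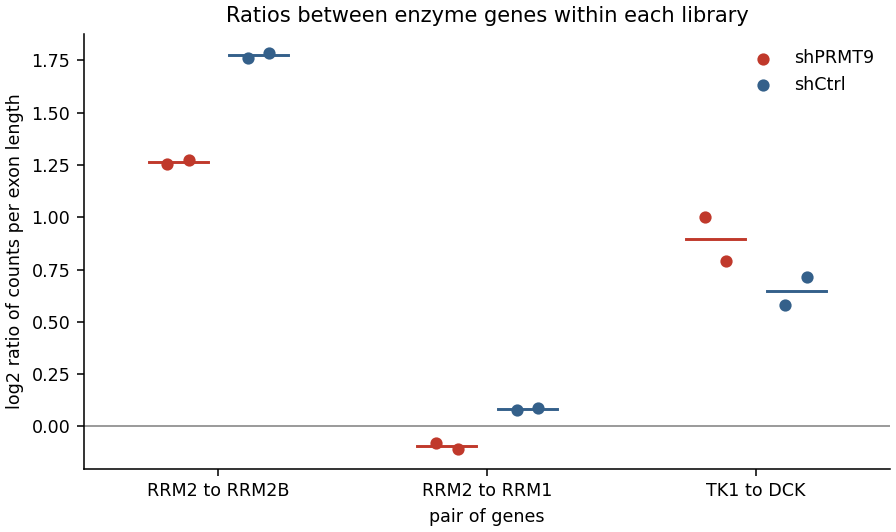
Log2 ratio of counts per exon length for 3 pairs of enzyme genes in each library, shPRMT9 left of shCtrl, with points for libraries and lines for group means. RRM2 to RRM2B has a mean of 1.26 in shPRMT9 cells and 1.77 in shCtrl cells, and TK1 to DCK is the pair with the widest spread within a group.

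Genes of folate, purine and pyrimidine synthesis mostly fell. The lists were written by role, with earlier results of these data known, and are described by counts and medians without a list test. Each count is to be read beside all genes tested, of which 34.5% were called lower and 33.4% higher. Of 7 tested folate genes that serve thymidylate synthesis, 6 fell and FPGS did not pass (0.02), with a median log2 fold change of -0.53. MTHFD1, which carries single-carbon units on folate, had 164.4 and 167.1 CPM in shPRMT9 cells, against 250 and 245.3 CPM in shCtrl cells (-0.58, adjusted p = 1.94e-12). De novo purine synthesis had 12 of 13 genes lower, with a median of -0.40, among them PFAS (-0.64) and GMPS (-0.58). The smallest of these falls, IMPDH2 (-0.08), turned to 0.01 with upper-quartile scaling, and ADSSL1, a low-level isozyme, was higher (0.70), a call lost without shPRMT9 replicate 2 (0.42) and in the RPKM fits. De novo pyrimidine synthesis had 4 of 6 genes lower, with a median of -0.40. CTPS1, which makes CTP, had 48.05 and 51.52 CPM in shPRMT9 cells, against 104.3 and 107.9 CPM in shCtrl cells (-1.09, adjusted p = 2.22e-13). CAD, which runs the first steps of the route, fell by 0.70, and CMPK1 did not pass (-0.04). The CTPS2 isozyme had a log2 fold change of 0.19 (adjusted p = 0.0143), a call lost with DESeq2 (adjusted p = 0.132), without shPRMT9 replicate 2 and without shCtrl replicate 1.

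Genes listed with the thiol systems that reduce ribonucleotide reductase after each turn moved unevenly. TXNRD1, thioredoxin reductase, fell by 0.77 and GSR by 0.42, while GLRX, glutaredoxin, rose by 0.81 and TXN did not pass (-0.07). GLRX3, also on the list, fell by 0.44, and a role of GLRX3 in this reduction was not tested. Among uptake and other salvage genes, 6 of 13 fell and 3 rose, with a median of -0.13. Over all genes tested the shares were 34.5% lower and 33.4% higher, so these counts do not set the list far apart. With upper-quartile scaling 5 fell and 5 rose, with a median of -0.04, and without shPRMT9 replicate 1 the median was -0.21. The count of rises was 1 with DESeq2, and likewise without shPRMT9 replicate 2 or without shCtrl replicate 1. SLC29A1, the equilibrative carrier that brings nucleosides and cytarabine into the cell, had 53.65 and 53.5 CPM in shPRMT9 cells, against 112.7 and 115.4 CPM in shCtrl cells (-1.09, adjusted p = 3.75e-14). HPRT1, the hypoxanthine salvage enzyme, fell by 0.59. TK2, the mitochondrial counterpart of TK1, rose: it had 41.07 and 42.6 CPM in shPRMT9 cells, against 24.21 and 26.96 CPM in shCtrl cells (0.71, adjusted p = 5.62e-09). UPRT had a log2 fold change of 0.27 and PNP, the purine nucleoside phosphorylase, of 0.08, but DESeq2 did not call either (adjusted p = 0.103 and 0.134), and both calls were lost without shPRMT9 replicate 2 and without shCtrl replicate 1, that of PNP also without shPRMT9 replicate 1.

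Of 12 tested nucleotide kinases, 7 fell and 3 rose, with a median of -0.28, beside 34.5% lower and 33.4% higher over all genes tested. Against a fold of 1.5, 0 were called lower and 1 higher. AK4, an adenylate kinase of the mitochondrial matrix, had 35.54 and 37.56 CPM in shPRMT9 cells, against 9.556 and 9.42 CPM in shCtrl cells (1.95, adjusted p = 1.57e-13). CMPK2, a mitochondrial UMP-CMP kinase, rose by 0.49. NME7 had a log2 fold change of 0.27, a call lost with DESeq2 (adjusted p = 0.117) and without shPRMT9 replicate 1.

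Genes of deoxynucleotide and nucleoside breakdown leaned the other way: 8 of 14 rose and 4 fell, with a median of 0.23. Of the rises, NT5C3A (0.18) was not called with DESeq2 (adjusted p = 0.126). Its log2 fold change was 0.08 without shPRMT9 replicate 2 and 0.09 without shCtrl replicate 1. Over all genes tested, 33.4% were called higher and 34.5% lower, so the falls in this list were near the share of all genes. In log2(RPKM + 1) the median was 0.15, and 0.03 without a filter on low values. SAMHD1, which hydrolyses deoxynucleoside triphosphates and inactivates the active form of cytarabine, had 375.2 and 370.1 CPM in shPRMT9 cells, against 280.8 and 266 CPM in shCtrl cells (0.45, SE 0.0253, adjusted p = 8.19e-11). ADA, which deaminates adenosine and deoxyadenosine, had 53.68 and 53.94 CPM in shPRMT9 cells, against 33.76 and 33.34 CPM in shCtrl cells (0.68, adjusted p = 3.89e-10). Among those that fell were DCTD (-0.52), which deaminates dCMP to the dUMP used by TYMS, the pool-cleaning hydrolase NUDT1 (-0.51) and the 5′ nucleotidase NT5C (-0.30), whose call was lost without shPRMT9 replicate 2 and in the RPKM fits.

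Nearly all cell cycle genes listed fell. Of 50 G1/S genes other than the 9 enzymes, 49 fell and CDT1 did not pass (-0.01), with a median of -0.99. Their summed RPKM was 778 and 781 in shPRMT9 cells, against 1460 and 1490 in shCtrl cells. MCM3, a subunit of the replicative helicase, fell by 1.26 and CLSPN, an activator of the replication checkpoint, by 1.62. Of 51 G2/M genes, 50 fell and CDC25C narrowly did not pass (0.19, edgeR adjusted p = 0.0512), with a median of -0.67. CDC25C was called higher with DESeq2 size factors, upper-quartile scaling, library totals, limma-voom and a filter of at least 1 CPM in 2 libraries. HMGB2, a chromatin protein gene, fell by 1.70 and TMPO, a gene of the nuclear lamina, fell by 1.11. The part of this wider fall in the levels of the 9 enzymes was not tested.

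Genes known to regulate the enzymes were mostly lower, 18 of 25, with 5 higher and a median of -0.74. This list overlaps the G1/S list, with E2F2 (-1.91) on both, so the 2 lists are not independent. E2F1 had 12.42 and 11.69 CPM in shPRMT9 cells, against 32.37 and 30.8 CPM in shCtrl cells (-1.39, SE 0.0659, adjusted p = 7.81e-12). MYBL2, which acts on G2/M promoters, fell by 1.37 and TFDP1, the dimer partner of E2F factors, by 0.86. Those that rose were TFDP2 (0.57), ATM (0.21), RBL2 (0.15), FZR1 (0.15) and FOXO3 (0.14), and RB1 (-0.04) was among those that did not pass. FZR1 was not called by DESeq2 (adjusted p = 0.0755), and FOXO3 was not called in the RPKM fits. In log2(RPKM + 1) without a filter, RBL2 and FZR1 lost the call as well, and 2 genes of the list were called higher.

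CDKN1A, an inhibitor of cyclin-dependent kinases that restrains entry into S phase, had 400.4 and 405.8 CPM in shPRMT9 cells, against 266.9 and 263.3 CPM in shCtrl cells (0.60, adjusted p = 2.2e-13), opposite in direction to the 9 enzyme genes.

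**Figure D4:**
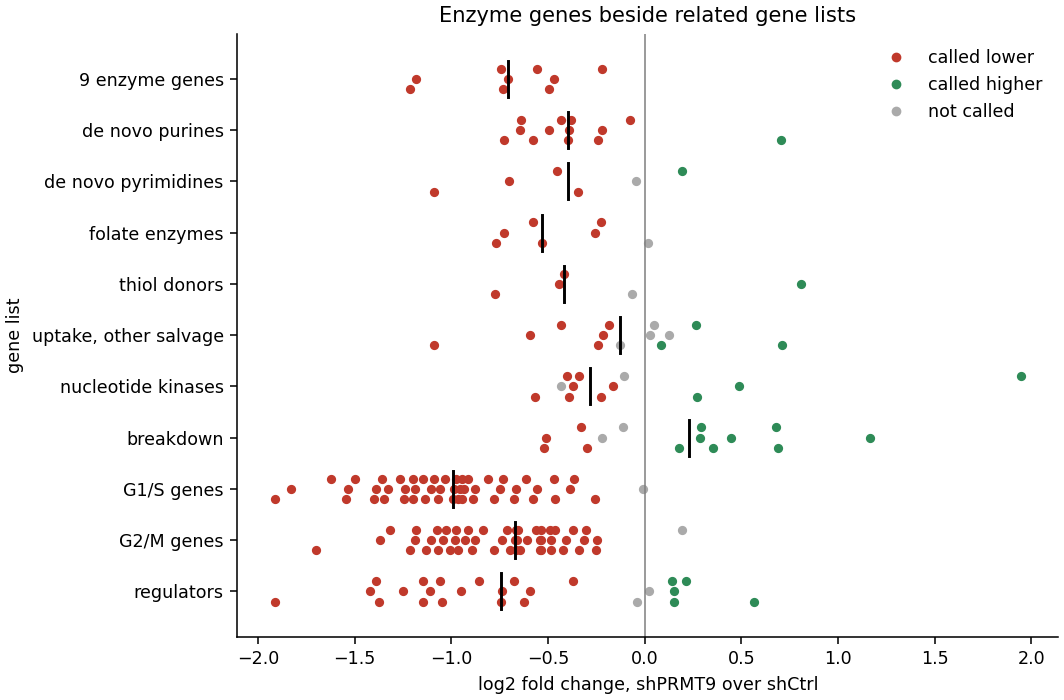
Log2 fold change of every tested gene, shPRMT9 over shCtrl, in the 9 enzymes and 10 related lists, coloured by call. The G1/S list has its median at -0.99 and the breakdown list at 0.23.

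Genes with the most similar profile over the 4 libraries were sought among 9052 genes with a mean of 10 CPM or more, by Euclidean distance of log2 CPM centred on the shCtrl mean. Nearest to RRM2 were LAPTM4B (distance 0.00903), SRSF1 (0.00998) and C5orf22 (0.0144), and 256 genes lay within 0.1. Nearest to RRM2B were PHAX (0.00673), PARP1 (0.00851) and ZNF3 (0.00896), and 704 genes lay within 0.1. With only 4 libraries that share their scaling, a small distance is common, and it says nothing of shared function.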

How the data were processed

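Poly(A) RNA was profiled in 4 libraries, with RNA integrity above 8 per the labels. The authors deposited raw read counts per gene and RPKM values with GRCh38 coordinates. The submitters' processing notes name Trimmomatic 0.39, STAR 2.7.2a and SAMtools 1.10 without their roles. The counting program, strand use, multi-mapping rule and annotation release were not given in the sources used here. The deposited RPKM equalled counts per exon length divided by the library total times a TMM factor (1.008 and 1.004 in shPRMT9, 1.009 and 0.9792 in shCtrl).

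Counts were filtered with filterByExpr (minimum count 10; 99.91% of counts kept), TMM-scaled and tested with edgeR 4.0.16 in R 4.3.3, robust quasi-likelihood fit, group term, Benjamini-Hochberg adjustment over all genes. The step was also run on simulated counts in which only a small share of genes changed. That run does not cover a comparison with 68.0% of genes called, so it leaves the scaling and error rate here unchecked. SE is the log2 fold change divided by the square root of F. Exon overlap came from GENCODE 29. Libraries of a group differed beyond sampling noise (chi-square per gene 1.6 in shPRMT9, 2.94 in shCtrl), with a coefficient of variation of 0.0259 beyond counting error.

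The members and lists were chosen with earlier results of these data known. Named genes are every member, PRMT9, a few fixed genes, per list the 2 called genes of lowest adjusted p at a mean of 10 CPM or more, up to 4 called genes that move against their list, genes that share exons with a member, and the nearest profiles. Other names (FPGS, CMPK1, TXN, GSR, IMPDH2, CDT1, CDC25C, FZR1, RB1, DGUOK, NME4, E2F5, E2F2, NT5C3A) were chosen after their values were seen. Some genes and 1 list that these rules cover are not reported here. Alternatives covered scaling, filters, DESeq2 1.42.0, limma 3.58.1 (voom), a test against a fold of 1.5, a stricter threshold, log2(RPKM + 1) and log2(RPKM + 0.1), the replicate block and each library left out.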

Additional observations from a re-analysis of the deposited data

How the results depend on the processing

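All 9 enzyme genes stayed lower and called under each of 19 alternatives, except against a fold of 1.5, where 5 of the 9 and 2884 of all genes were called and RRM1, RRM2B, TK1 and DCTPP1 lost the call; that test asks for a larger change. No enzyme, ratio or list median changed direction under any alternative. Upper-quartile scaling brought every enzyme nearer to 0, RRM2B to -0.13 and TYMS to -1.13. Under it DGUOK, NME4, E2F5 and IMPDH2 lost the call, among the listed genes reported here, and IMPDH2, CDT1, CMPK1, RB1 and TXN changed sign, while FPGS and CDC25C were called higher. The calls of CTPS2, UPRT, NME7, PNP and NT5C3A were lost under 7, 7, 6, 9 and 8 alternatives besides the fold limit. With each library left out in turn, 9230 to 9990 genes changed, 9 to 9 enzymes were called lower and 0 to 0 higher, PRMT9 lay between -2.58 and -2.39, and the log2 difference in ratio lay between -0.52 and -0.50 (RRM2 to RRM2B), -0.19 and -0.16 (RRM2 to RRM1) and 0.15 and 0.35 (TK1 to DCK). DESeq2 called 8350 genes changed, limma-voom 10326 and log2(RPKM + 1) without a filter 7516. PRMT9 changed by -1.46 in log2(RPKM + 1), where the added 1 shrinks a gene of low level. The list medians moved by more than the spread between libraries in 59 recomputed values and by less in 150. No shared offset of same-numbered libraries was seen over all genes tested (correlation of deviations -0.0307). Counting noise can hide such an offset, so whether the numbers pair the libraries stays unknown. With the replicate number as a block, 10307 genes changed, 9 enzymes were lower, RRM2B was at -0.22 and the ratio differences were -0.51, -0.18 and 0.25. With the GENCODE 29 exon length of RRM2, tried after seeing the data, the ratio differences of RRM2 were the same. The earlier quasi-likelihood method of edgeR, tried after seeing the data, called 10313 genes. With 2 libraries a group, ratios cannot be tested below p = 0.333 by permutation.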

Other observations

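The values of the mitochondrial salvage kinases are set beside those of the cytosolic pair, a choice made after the values were seen. TK2, which phosphorylates thymidine and deoxycytidine in mitochondria, rose by 0.71 on the log2 scale, while TK1 and DCK fell by 0.50 and 0.74. DGUOK, which phosphorylates deoxyguanosine and deoxyadenosine in mitochondria, had a log2 fold change of -0.22 (edgeR adjusted p = 0.0031), a call lost with upper-quartile scaling (-0.13, adjusted p = 0.0593) and with DESeq2 (adjusted p = 0.0559). Differences between these cytosolic and mitochondrial genes were not tested.

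Among the breakdown genes, TYMP, which cleaves thymidine to thymine, rose by 0.69 (adjusted p = 2.34e-07), and UPB1, the last enzyme of pyrimidine breakdown, by 1.17 (adjusted p = 2.12e-06). Both were named after their values were seen.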
